A study of Bos taurus with 12 samples.

Results

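Sugar transporters and glycolytic enzymes were represented by 9 genes: the transporter genes SLC2A1, SLC2A3 and SLC2A5, and the enzyme genes ALDOA, GAPDH, PGK1, ENO1, LDHA and LDHB. They were chosen by name, as the probe sets that the array's annotation assigns to exactly 1 of these symbols. A probe set is the group of short probes that together read 1 transcript. The rule found 16 probe sets of 24128 on the array. Of these, 13 were among the 24016 tested, and 3 were Affymetrix control probe sets for GAPDH, which were described but kept out of the test. SLC2A5 and LDHA had 3 tested probe sets each and every other gene had 1, and each gene was represented by its tested probe set of highest mean over the 12 arrays.

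The embryos were of Japanese Black cattle and were made in vitro in 4 groups of 3 pools. Oocytes came from adult cows, whose ovaries were collected at an abattoir, or from prepubertal heifers of 9 to 12 months, whose ovaries were removed with a spay device on commercial farms. In all groups the oocytes were matured in TCM 199 with fetal bovine serum, fertilized with frozen and thawed semen of a Japanese Black bull in BO medium, stripped of cumulus cells, and grown in CR1aa medium, first with albumin and then with serum, under low oxygen. The 8-16-cell embryos were pooled by 50 on day 3 (70 to 72 h from insemination), and expanded blastocysts that had not hatched were pooled by 10 on day 7. Embryos of normal morphology were picked by eye, so each group stands for the embryos that had reached the stage. The sources used here do not say whether pools shared animals, semen or a culture day. P-values therefore rest only on spread between these pools.

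Glucose enters cells through facilitative transporters of the SLC2A (GLUT) family, of which SLC2A1 and SLC2A3 carry glucose and SLC2A5 carries fructose. Glycolysis then turns the sugar into pyruvate, and lactate dehydrogenase interconverts pyruvate and lactate. The cleaving mammalian embryo is known to use mostly pyruvate and lactate as fuels, and glucose uptake and glycolysis are known to increase as the blastocyst forms.

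Signals are MAS5 intensities on a linear scale, and all differences below are of log2(signal + 16), written as blastocyst minus 8-16-cell or as prepubertal minus adult. A gene is called changed at an adjusted p under 0.05 in limma, a linear model fitted to all tested probe sets with Benjamini-Hochberg adjustment over all of them. Its standard errors rest mostly on the spread that probe sets of similar mean level share (195.66 prior against 8 residual degrees of freedom). They and the limma p-values therefore do not measure a gene's own spread between pools. A signal counts as above background where it exceeds the brightest of the array's 27 control probe sets for Bacillus subtilis. This background is too high if RNA for those controls was added to the samples, which was not tested. Background lay between 122 and 424 on 11 arrays and at 1664 on prepubertal 8-16-cell replicate 3, which also had the brightest hybridization controls (mean log2 of 20.18, against 16.99 to 19.10 on the others). All 9 genes were above background on the prepubertal blastocyst arrays and on adult blastocyst replicates 1 and 2, and 7 of 9 on adult blastocyst replicate 3. The adult 8-16-cell arrays had 7, 6 and 6 of the 9, and the prepubertal ones 4, 5 and 1. The part of this array in a result was not tested, and bounds that rest on its background are given with and without it. For a gene at background on all arrays of its dim group, the change is given as "at least" a fold, the brighter group against the dim signals raised to each array's background. No bound is given where those raised signals reach the brighter group, and a log2 difference against signals at background is not a measured size.

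**Figure D1:**
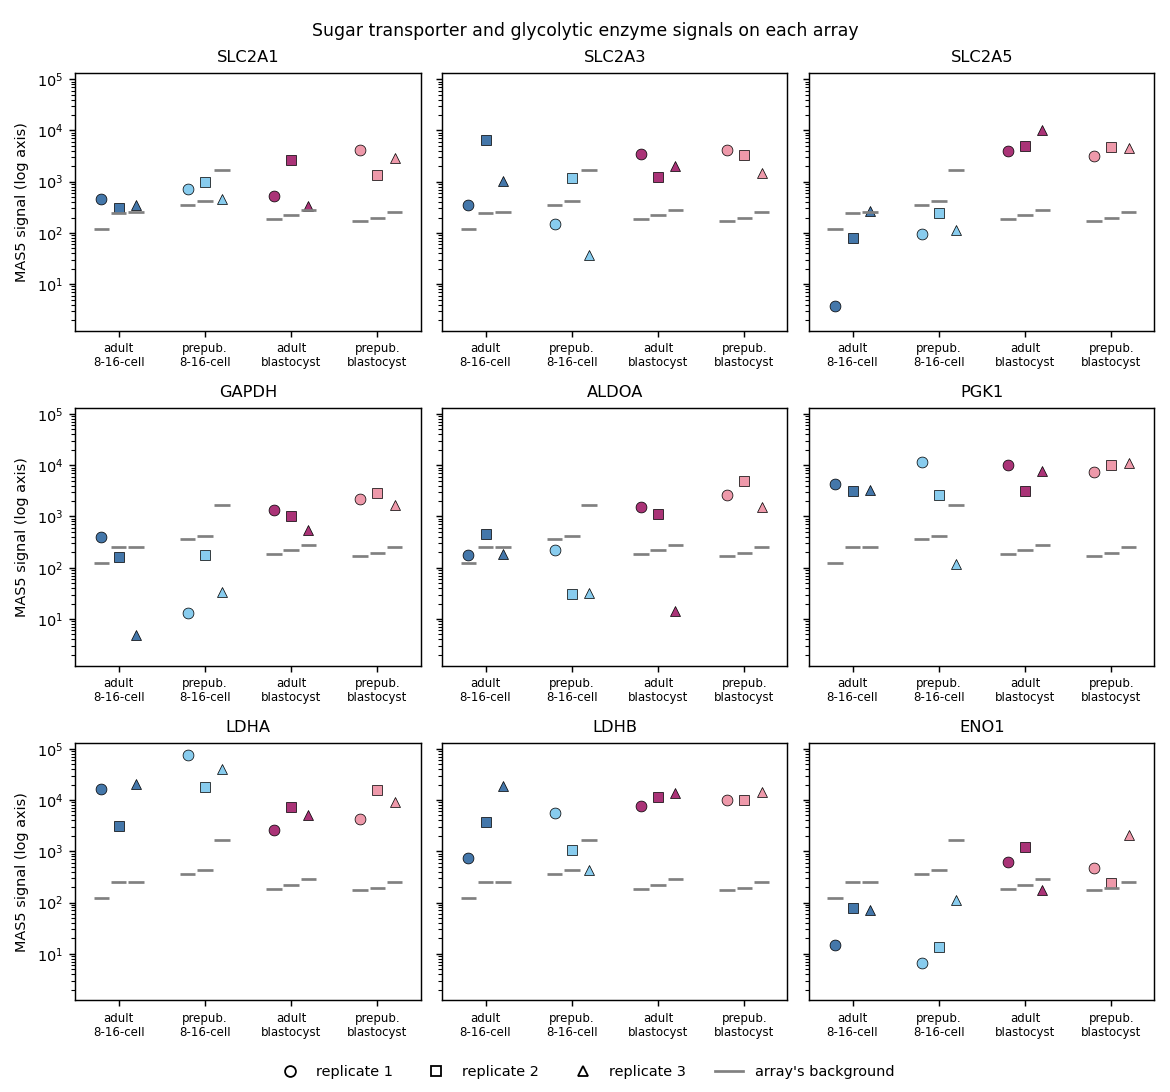
MAS5 signal (log axis) of the representative probe set of each of the 9 genes on each of the 12 arrays, by group, with the shape giving the replicate and a grey bar the array's background. The signals of SLC2A5, GAPDH and ENO1 on the blastocyst arrays all lie above those on the 8-16-cell arrays of the same donor group, and those of LDHA lie lower in blastocysts in the prepubertal group.

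Of the 3 transporters, SLC2A5 rose from the 8-16-cell stage to the blastocyst and the glucose transporters SLC2A1 and SLC2A3 were not called. SLC2A5 (probe set Bt.19805.1.A1_at), the fructose transporter gene, read 3.71, 80.3 and 273 on the 3 adult 8-16-cell arrays and 4035, 4951 and 10005 on the adult blastocyst arrays. In the prepubertal group it read 96.5, 247 and 114 at the 8-16-cell stage and 3204, 4837 and 4639 in blastocysts. Every blastocyst array thus lay above every 8-16-cell array, of which 1 of 6 was above background. As these are whole embryos, fewer cells of a type and less RNA per cell cannot be told apart in this or any later result.

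The change in SLC2A5 was 6.16 in the adult group (SE 1.45, limma adjusted p = 0.00522), which made it the 1 of 9 genes called there, where 2.13% of all tested probe sets were called and 1.26% were called higher. The call was narrow: it ended on leaving out adult 8-16-cell replicate 1 (5.14, adjusted p = 0.0637) or adult blastocyst replicate 3 (5.78, adjusted p = 0.0521). In the prepubertal group SLC2A5 was higher in blastocysts by 4.74 (SE 1.45, adjusted p = 0.0521 in limma), at least 6.42-fold and at least 10.3-fold without prepubertal 8-16-cell replicate 3, just short of the threshold. It passed there without adult 8-16-cell replicate 1, 2 or 3, which alter only the shared variance (adjusted p = 0.0371, 0.047 and 0.0431). Over the mean of both donor groups the change was 5.45 (SE 1.02, adjusted p = 3.28e-05 in limma). This mean is made of the same arrays and is not independent of the comparisons within each donor group.

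The other SLC2A5 probe sets had the same direction with smaller or less certain changes. Bt.12774.1.A1_at read 125, 115 and 12.4 in adult and 11.7, 30.7 and 37.8 in prepubertal 8-16-cell embryos, against 1023, 1961 and 220.1 in adult and 1502, 2149 and 1059.6 in prepubertal blastocysts. Its change was 3.28 in the adult group (adjusted p = 0.317) and 5.21 in the prepubertal group (limma adjusted p = 0.0256, at least 2.34-fold and at least 3.77-fold without prepubertal 8-16-cell replicate 3), so here the prepubertal and not the adult change passed. Bt.12774.1.S1_at changed by 3.27 and 2.83 and passed in neither group (adjusted p = 0.347 and 0.392 in limma), with 1 adult blastocyst array at 6.57 and the others at 1629.6 and 2059. The difference of the SLC2A5 change between donor groups was -1.43 on the representative probe set (SE 2.05, adjusted p = 0.976 in limma).

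SLC2A1, the glucose transporter found in most cell types, was above background on 11 of 12 arrays, all except prepubertal 8-16-cell replicate 3. It read 449, 308 and 358 in adult and 736, 977 and 463 in prepubertal 8-16-cell embryos, and 530.3, 2636 and 328 in adult and 4226, 1343 and 2892 in prepubertal blastocysts. The prepubertal blastocyst arrays were all above the prepubertal 8-16-cell arrays, while the adult stages overlapped, with 1 bright adult blastocyst array. The changes of 1.05 (adult, SE 1.43, adjusted p = 0.905) and 1.85 (prepubertal, SE 1.43, adjusted p = 0.62) were not called by limma, and the 95% interval of their mean ran from -0.55 to 3.45. The groups ranked, from low to high mean log2 signal, adult 8-16-cell (8.58 ± 0.26, SD, n = 3), prepubertal 8-16-cell (9.47 ± 0.53), adult blastocyst (9.63 ± 1.54) and prepubertal blastocyst (11.32 ± 0.84). The adult and prepubertal 8-16-cell arrays did not overlap, while the later neighbours in that order did.

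SLC2A3, a glucose transporter of high affinity, varied widely between pools at the 8-16-cell stage. It read 345, 6579 and 1029 in adult and 148, 1184 and 37 in prepubertal 8-16-cell embryos, and 3478, 1244 and 1988 in adult and 4195, 3388 and 1469.6 in prepubertal blastocysts. The adult stages overlapped because of adult 8-16-cell replicate 2, and the prepubertal stages did not overlap. The changes were 0.61 in the adult group (SE 1.42, adjusted p = 0.96) and 3.67 in the prepubertal group (SE 1.42, adjusted p = 0.174), neither called by limma. Without adult 8-16-cell replicate 1 the adult value was -0.35, so it has no settled direction.

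The difference between transporters within an array takes out the scaling of that array where both signals are far above the added 16. Only its change between stages is read. SLC2A5 signals at the 8-16-cell stage went down to 3.71, where the scaling is taken out only in part. SLC2A5 minus SLC2A1 changed by 5.11 in the adult and 2.89 in the prepubertal group, a mean of 4.0 (exact permutation test within donor groups over 400 arrangements, p = 0.005, the smallest possible, and 0.0075 adjusted over the 3 pairs examined). The within-array difference lay between -4.56 and -0.37 on the adult 8-16-cell arrays and between 0.91 and 4.86 on the adult blastocyst arrays. In the prepubertal group it lay between -2.74 and -1.88 and between -0.40 and 1.84, so the stages overlapped in neither group. SLC2A5 was at background on all prepubertal and on 2 of 3 adult 8-16-cell arrays, so these sizes are not measured. With each signal raised to its own array's background, an alternative added after seeing the data, the mean change was 2.56 (exact permutation test, p = 0.01). The prepubertal stages then overlapped, at -1.18 to 0 in 8-16-cell embryos and -0.40 to 1.84 in blastocysts. SLC2A3 minus SLC2A1 changed by 0.69 (exact permutation test, p = 0.545).

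**Figure D2:**
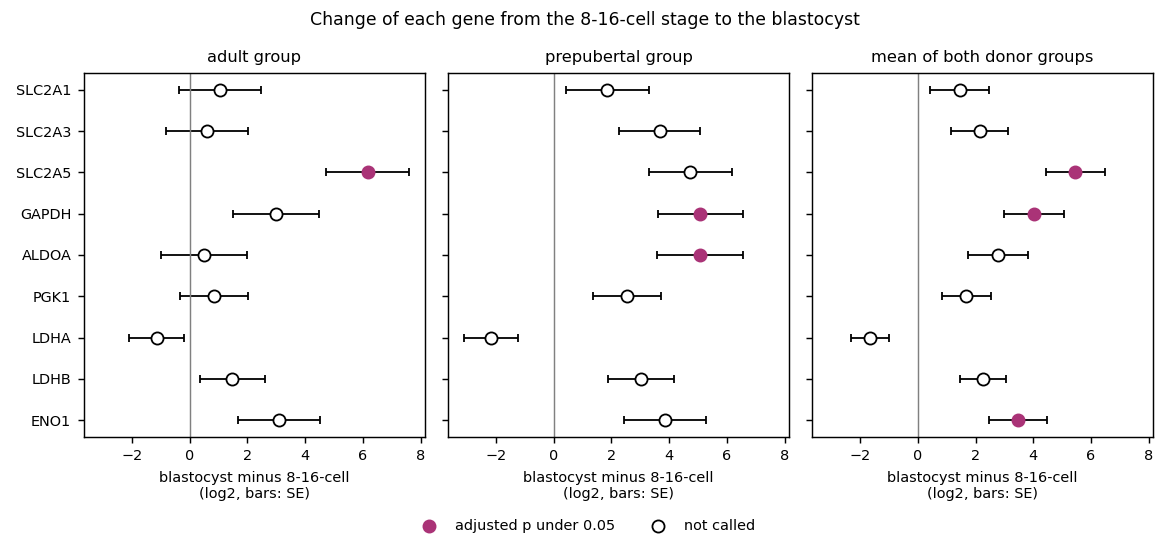
Blastocyst minus 8-16-cell difference of log2(signal + 16) for each gene in the adult group, the prepubertal group and the mean of both, with bars of 1 SE and filled points at an adjusted p under 0.05. SLC2A5 is filled in the adult group (6.16), GAPDH (5.08) and ALDOA (5.06) in the prepubertal group, and SLC2A5, GAPDH and ENO1 in the mean, while LDHA is the gene left of 0 in each panel.

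Among the enzymes, GAPDH and ALDOA rose in the prepubertal group and no enzyme was called in the adult group. These were the 2 of 9 genes called in the prepubertal group, where 2.34% of all tested probe sets were called and 1.43% were called higher. ALDOA (aldolase A) splits fructose bisphosphate into triose phosphates. Its probe set read 179.8, 449.6 and 185 in adult and 226, 31.2 and 32.2 in prepubertal 8-16-cell embryos, then 1499, 1101 and 14.4 in adult and 2666, 4879.6 and 1529 in prepubertal blastocysts. Adult blastocyst replicate 3 thus lay below every adult 8-16-cell array, and the prepubertal stages were far apart.

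ALDOA rose by 5.06 in the prepubertal group (SE 1.49, limma adjusted p = 0.0394), at least 4.19-fold, and at least 6.74-fold without prepubertal 8-16-cell replicate 3. In the adult group the difference was 0.50 (SE 1.49, adjusted p = 0.973), and it was 2.30 without adult blastocyst replicate 3 but -0.52 and -0.30 without replicates 1 and 2. The prepubertal call was lost on leaving out prepubertal 8-16-cell replicate 2 or 3 (adjusted p = 0.123 and 0.11) or prepubertal blastocyst replicate 1, 2 or 3 (0.13, 0.185 and 0.079), with values of 4.64 to 5.47. Over the mean of both donor groups ALDOA differed by 2.78 (adjusted p = 0.104 in limma), and it passed without adult blastocyst replicate 3 (3.68, adjusted p = 0.0273).

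GAPDH, the dehydrogenase that yields NADH in glycolysis, is often used as a reference gene in embryos. Its tested probe set (Bt.6091.1.S1_at) read 393, 165 and 4.94 in adult and 13.2, 178 and 33.5 in prepubertal 8-16-cell embryos. In blastocysts it read 1309, 1039 and 544 in the adult and 2189.7, 2840.3 and 1695 in the prepubertal group. All blastocyst arrays lay above all 8-16-cell arrays. The change in the prepubertal group was 5.08 (SE 1.48, limma adjusted p = 0.0357), at least 3.40-fold, and at least 5.46-fold without prepubertal 8-16-cell replicate 3. That call was lost without prepubertal 8-16-cell replicate 1 or 3 (adjusted p = 0.125 and 0.0822) or prepubertal blastocyst replicate 1, 2 or 3 (0.122, 0.142 and 0.0915), with values of 4.49 to 5.26. In the adult group the difference was 2.99 (SE 1.48, adjusted p = 0.42 in limma). Over the mean of both it was 4.03 (SE 1.04, adjusted p = 0.00491 in limma), a call kept when any 1 array was left out (highest adjusted p = 0.0409).

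The 3 GAPDH control probe sets read the 5′ end, the middle and the 3′ end of the transcript. The 3′ probe set, brighter on average than the tested one, read 18, 566 and 23.7 in adult and 758, 264 and 72.3 in prepubertal 8-16-cell embryos, then 4228, 12328 and 11421 in adult and 10147, 18588 and 25069 in prepubertal blastocysts. With the control probe sets in the fit, an alternative added after seeing the data, GAPDH by its 3′ probe set rose in both donor groups, by 6.51 in the adult (limma adjusted p = 0.00146) and 5.97 in the prepubertal group (adjusted p = 0.00368). The middle probe set was at background on all 8-16-cell arrays and between 224 and 3478 on the blastocyst arrays, all above background. The 5′ probe set was at background on 11 arrays and at 9321 on prepubertal blastocyst replicate 1. The log2 ratio of 3′ to 5′ signal was higher in blastocysts by 5.39 for GAPDH (exact permutation test within donor groups, p = 0.015). For the Affymetrix actin controls it was higher by 1.41 (exact permutation test within donor groups, p = 0.2). The actin 3′ probe set was above background on prepubertal blastocyst replicate 3 alone. With the 5′ GAPDH signal and most actin signals at background, neither ratio is a measured size, and RNA quality was not judged from them. How far the position of a probe set on the transcript moves the GAPDH values was not tested.

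**Figure D3:**
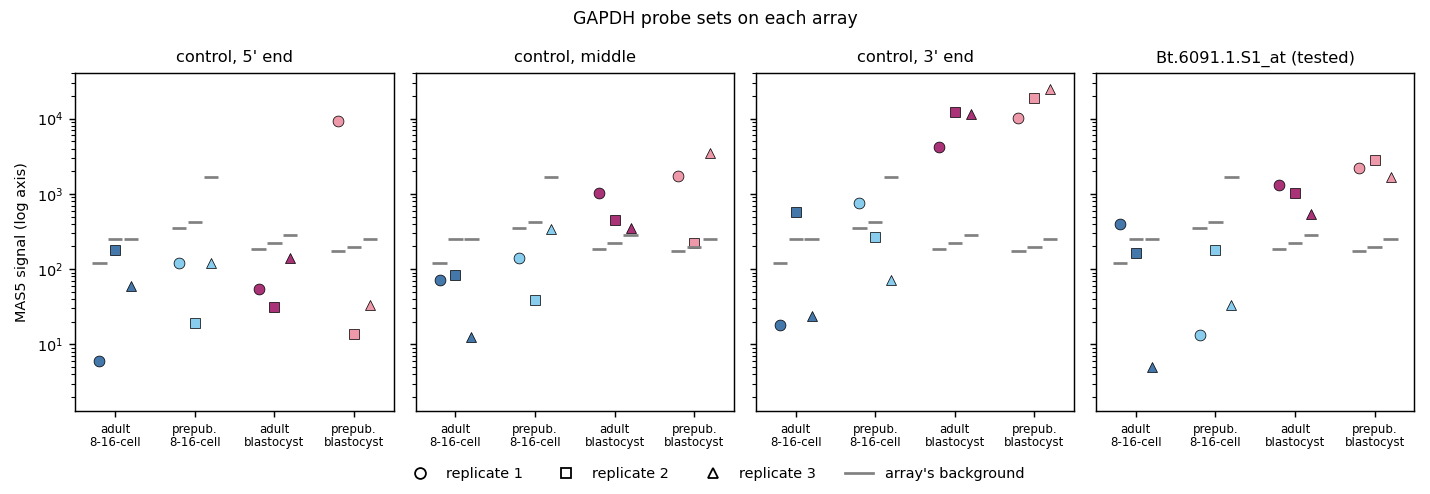
MAS5 signal (log axis) of the 3 GAPDH control probe sets and of the tested probe set on each array, with grey bars for each array's background. The 3′ control lies at 4228 to 25069 on the blastocyst arrays, while the 5′ control is at background on every array except prepubertal blastocyst replicate 1, at 9321.

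PGK1 (phosphoglycerate kinase), which transfers a phosphate to make ATP, was well above background on every array except prepubertal 8-16-cell replicate 3. It read 4283, 3119 and 3304 in adult and 11762, 2633 and 118 in prepubertal 8-16-cell embryos. It read 10264, 3132 and 7777 in adult and 7521, 9938 and 10844 in prepubertal blastocysts. The stages overlapped in both donor groups. The changes of 0.83 (adult, SE 1.18, adjusted p = 0.909) and 2.54 (prepubertal, SE 1.18, adjusted p = 0.297) were not called by limma. The prepubertal value was 0.74 without prepubertal 8-16-cell replicate 3, the array at 118, which is below its background.

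ENO1 (enolase), which makes phosphoenolpyruvate, was at background on all 6 arrays of the 8-16-cell stage, with signals of 14.6, 77.9 and 69.9 in the adult and 6.62, 13.6 and 109.9 in the prepubertal group. In blastocysts it read 626, 1206 and 177 in the adult and 469, 239 and 2107 in the prepubertal group, above background on 5 of 6. The stages did not overlap in either group. ENO1 was higher by 3.09 in the adult group (SE 1.42, adjusted p = 0.354), at least 2.50-fold, and by 3.87 in the prepubertal group (SE 1.42, adjusted p = 0.142), neither called by limma. The prepubertal difference has no bound with all arrays, and was at least 1.58-fold without prepubertal 8-16-cell replicate 3. Over the mean of both it rose by 3.48 (SE 1.0, adjusted p = 0.0154 in limma), at least 1.57-fold, or at least 1.99-fold without prepubertal 8-16-cell replicate 3. Leaving out any of 3 arrays ended that call: adult 8-16-cell replicate 1 (3.22, adjusted p = 0.0535), adult blastocyst replicate 2 (3.18, 0.0578) or prepubertal blastocyst replicate 3 (3.05, 0.0647).

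Over the mean of both donor groups 3 of 9 genes were called, SLC2A5, GAPDH and ENO1, all higher, where 6.4% of all tested probe sets were called and 3.9% were called higher. The same 3 genes had blastocyst arrays above all 8-16-cell arrays in each donor group, as had 2.86% of all probe sets. In the adult group alone they were again the 3 of 9 without overlap (9.55% of all). In the prepubertal group 7 of 9 were higher without overlap, all except PGK1 and LDHA (7.35% of all), and LDHA was lower without overlap (9.24% of all). Without prepubertal 8-16-cell replicate 3 these counts were again 7 and 1 (13.3% and 14% of all), but limma then called 0 of the 9 genes, with 6 at an unadjusted p under 0.05. The median change of the 9 genes, relative to the median of all probe sets, was 0.97 in the adult and 4.03 in the prepubertal group. It was 1.65 in the adult group without adult blastocyst replicate 3, and 2.70 in the prepubertal group without prepubertal 8-16-cell replicate 3 or 0.74 with all signals raised to that array's background.

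Lactate dehydrogenase has A and B subunits, encoded by LDHA and LDHB. The A form is known from glycolytic tissues and the B form from tissues that oxidize lactate. LDHA (Bt.3809.1.S1_at) read 16724, 3065 and 20890.2 in adult and 77373, 18141 and 40441 in prepubertal 8-16-cell embryos, and 2566, 7441 and 5187 in adult and 4274, 15739.7 and 9042 in prepubertal blastocysts. It was the gene among the 9 whose level was lower in blastocysts of both donor groups, and it was the 1 gene above background on prepubertal 8-16-cell replicate 3. The prepubertal stages did not overlap and the adult ones did. The changes were -1.14 in the adult group (SE 0.94, adjusted p = 0.774) and -2.18 in the prepubertal group (SE 0.94, adjusted p = 0.247), and their mean of -1.66 did not pass in limma (adjusted p = 0.138). It passed without adult 8-16-cell replicate 2 (-2.09, adjusted p = 0.0462).

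LDHB read 753, 3710.0 and 19022 in adult and 5603, 1049 and 437 in prepubertal 8-16-cell embryos, a wide spread. In blastocysts it was even, at 7516, 11492 and 13793 in the adult and 10043, 10149 and 14255 in the prepubertal group. The prepubertal stages did not overlap, and in the adult group 8-16-cell replicate 3 was above every blastocyst array. LDHB was higher by 1.49 in the adult group (SE 1.14, adjusted p = 0.744) and by 3.02 in the prepubertal group (SE 1.14, adjusted p = 0.156), and the mean of 2.25 missed the threshold (adjusted p = 0.074 in limma). It passed without adult 8-16-cell replicate 3 (2.84, adjusted p = 0.0268) or prepubertal 8-16-cell replicate 1 (2.76, adjusted p = 0.0236).

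Within an array, LDHA minus LDHB was lower in blastocysts by 2.63 in the adult and 5.20 in the prepubertal group. The difference of the log2 signals lay between -0.27 and 4.44 on the adult 8-16-cell arrays and between -1.54 and -0.63 on the adult blastocyst arrays. On the prepubertal arrays it lay between 3.78 and 6.48 and between -1.23 and 0.63. The stages did not overlap in either donor group, and the mean change was -3.92 (exact permutation test within donor groups, p = 0.005, the smallest possible, and 0.0075 adjusted over 3 pairs). Leaving out any 1 array gave values from -4.34 to -3.16. LDHB was at background on prepubertal 8-16-cell replicate 3, and with each signal raised to its own array's background the mean change was -3.60 (exact permutation test, p = 0.005).

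The size and direction depended on the LDHA probe set. Bt.13881.1.S1_at, annotated to the same gene, read 1033, 47.6 and 267 in adult and 13, 13.7 and 243 in prepubertal 8-16-cell embryos, and 1462, 538 and 1035 in adult and 1343, 3225 and 2076 in prepubertal blastocysts. It was therefore higher in blastocysts, by 1.84 in the adult group (adjusted p = 0.766) and by 5.11 in the prepubertal group (limma adjusted p = 0.0346, at least 3.22-fold and at least 5.18-fold without prepubertal 8-16-cell replicate 3), where Bt.3809.1.S1_at was lower. Within an array, Bt.13881.1.S1_at minus Bt.3809.1.S1_at changed by 5.13 between stages (exact permutation test, p = 0.005, a pair examined after seeing the data). Taken by Bt.13881.1.S1_at, LDHA minus LDHB changed by 1.22 (exact permutation test, p = 0.425). The third, Bt.25555.1.S1_at, stayed near background, between 6.40 and 286 on all arrays, and by it LDHA minus LDHB changed by -1.57 (exact permutation test, p = 0.195). LDHA as a gene thus has no settled direction between the stages in these data, and which transcripts each probe set reads was not tested.

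**Figure D4:**
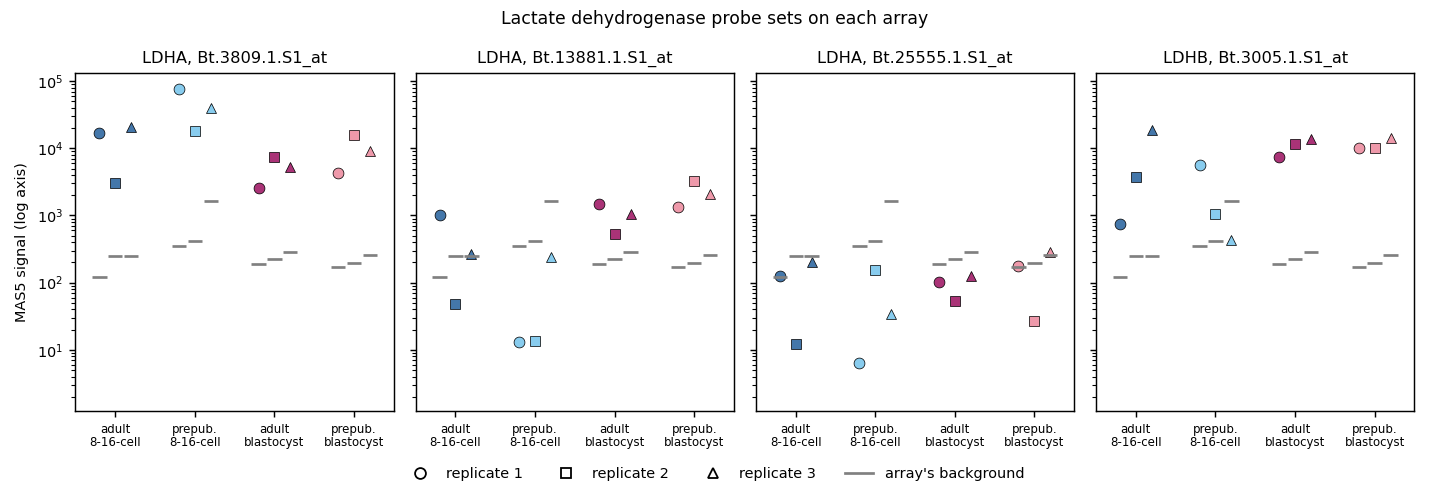
MAS5 signal (log axis) of the 3 LDHA probe sets and the LDHB probe set on each array. Bt.3809.1.S1_at is lower in the prepubertal blastocysts (4274 to 15739.7) than in the prepubertal 8-16-cell embryos (18141 to 77373), while Bt.13881.1.S1_at is higher there (1343 to 3225 against 13 to 243).

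No gene of the 9 was called between the donor groups. Adult and prepubertal ovaries also came from different places, an abattoir and farms, and donor age and origin cannot be told apart. At the 8-16-cell stage limma called 0 of 9 (0.0208% of all tested probe sets, 5 in number). An unadjusted p under 0.05 was found for 1 of the 9 genes and for 2166 of the 24016 tested probe sets. That gene was LDHA, higher by 1.91 in embryos of prepubertal heifers (SE 0.94, adjusted p = 0.539). SLC2A1 was the 1 of 9 genes with all 3 prepubertal 8-16-cell arrays above the adult ones, near the 10% of all probe sets that had this. Its difference was 0.89 (SE 1.43, adjusted p = 0.88 in limma). The lowest prepubertal signal, 463 on replicate 3, was below that array's background of 1664 and just above 449 on adult replicate 1. SLC2A3 was lower by 2.63 in the prepubertal group (SE 1.42, adjusted p = 0.578), with a 95% interval from -5.43 to 0.16. These intervals are wide, and such values do not show that the donor groups were alike.

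In blastocysts limma called 0 of 9 genes (0% of all probe sets), and 0 of 9 had an unadjusted p under 0.05, against 884 of the 24016 tested probe sets. GAPDH (1.26, SE 1.48) and ALDOA (2.87, SE 1.49) had all 3 prepubertal arrays above the adult ones, 2 of 9 where 6.04% of all probe sets had. For GAPDH this held on the tested probe set only. The donor groups overlapped on the brighter 3′ control (4228 to 12328 in adult and 10147 to 25069 in prepubertal blastocysts). They also overlapped on the middle control (355 to 1027 and 224 to 3478). SLC2A5, PGK1, LDHB and ENO1 differed by -0.49, 0.56, 0.10 and 0.26. The difference between stages in the donor effect was called for 0 of 9 (0% of all). An unadjusted p under 0.05 was found for 1 of the 9, against 1307 of the 24016 tested probe sets. That gene was ALDOA, whose change from the 8-16-cell stage to the blastocyst was 4.56 larger in the prepubertal group (SE 2.11, adjusted p = 0.911 in limma). The rises of GAPDH and ALDOA in the prepubertal group are therefore not shown to differ from the changes in the adult group. The donor comparisons share their arrays with the stage comparisons.

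The rest of the pathway was read from 72 further genes in 7 lists, of which 55 were measured, each by its probe set of highest mean. Limma called 2 of the 55 higher in adult blastocysts (1.26% of all probe sets), 4 higher in prepubertal blastocysts (1.43%), and 8 higher and 2 lower over the mean of both (3.9% and 2.51%). It called 0 of 55 in the donor comparisons of 8-16-cell embryos and of blastocysts and in their difference (0.0208%, 0% and 0% of all tested probe sets). An unadjusted p under 0.05 was found for 3, 0 and 1 of the 55, and for 2166, 884 and 1307 of the 24016 tested probe sets. Of the 6 other sugar transporters measured, the sodium-coupled transporter gene SLC5A1 fell over the mean of both donor groups (-3.55, SE 1.04, adjusted p = 0.0174), at least 3.37-fold lower. It read 1425, 332 and 451 in adult and 249.7, 239 and 14326 in prepubertal 8-16-cell embryos, and 15.3 to 190.0 in blastocysts, all at background. Without prepubertal 8-16-cell replicate 3, its brightest array, the value was -2.58 (adjusted p = 0.126 in limma, at least 1.73-fold lower), and 4 other single arrays also ended the call.

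Of 15 other glycolytic enzymes, 2 rose over the mean of both donor groups, where 3.9% of all tested probe sets were called higher. PKM, the pyruvate kinase of the last step, rose by 4.37 (SE 1.02, adjusted p = 0.0013 in limma), from 12.2, 137 and 110.3 in adult and 214, 498 and 827 in prepubertal 8-16-cell embryos to 3284, 3112 and 862 in adult and 9959.6, 21068 and 2165 in prepubertal blastocysts. In the adult group alone PKM was higher by 4.68 (adjusted p = 0.057), at least 9.77-fold, and it passed without prepubertal 8-16-cell replicate 1 or 3 (adjusted p = 0.0446 and 0.028). GPI, which converts glucose 6-phosphate to fructose 6-phosphate, rose by 3.18 (adjusted p = 0.0323), a call that ended without any 1 of 9 of the 12 arrays (highest adjusted p = 0.131). PGAM1 (phosphoglycerate mutase) was higher by 2.99 over the mean of both (adjusted p = 0.0646) and passed without adult 8-16-cell replicate 1 or prepubertal 8-16-cell replicate 3 (adjusted p = 0.0319 and 0.0342). The median change of the 15 enzymes, relative to all probe sets, was 0.81.

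Of the 5 measured genes of lactate and pyruvate transport limma called 1 higher in each donor group and 3 higher over the mean of both. Of the 9 of the pyruvate dehydrogenase list it called 1 higher in the adult group, 2 in the prepubertal group and 2 over the mean. Among all tested probe sets 1.26%, 1.43% and 3.9% were called higher in the adult group, the prepubertal group and the mean of both. MPC1 and MPC2 form the mitochondrial pyruvate carrier. MPC1 rose at least 8.62-fold in the adult group (adjusted p = 0.0122), from 14.9, 6.69 and 40.3 to 754, 2819 and 2831, and MPC2 at least 2.21-fold in the prepubertal group (adjusted p = 0.0197 in limma; at least 3.55-fold without prepubertal 8-16-cell replicate 3), from 7.04, 21.6 and 38.4 to 994, 2702 and 1063. PDHB, a subunit of the pyruvate dehydrogenase E1 enzyme, rose at least 63.1-fold in the adult group (adjusted p = 4.33e-05) and at least 18.0-fold in the prepubertal group (adjusted p = 0.00805), or at least 29.0-fold without that array. It read 8.09, 28 and 135 in adult and 135, 223 and 367 in prepubertal 8-16-cell embryos, all at background, and 11067, 12219.5 and 17956 in adult and 19626, 7187 and 11355 in prepubertal blastocysts. PDHA1, the other subunit, rose at least 2.87-fold in the prepubertal group (adjusted p = 0.0346 in limma), or at least 4.62-fold without it. Over the mean of both donor groups all 4 were called, by 3.93 to 6.78.

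Within a donor group most of these calls depended on single arrays. The adult MPC1 call ended when 8-16-cell replicate 2 or blastocyst replicate 2 or 3 was left out (adjusted p = 0.0542, 0.0793 and 0.0785). The prepubertal MPC2 call was lost without prepubertal 8-16-cell replicate 1 or 2 (0.0717 and 0.0509) or blastocyst replicate 1, 2 or 3 (0.0532, 0.123 and 0.0557). The prepubertal PDHA1 call was lost without 8-16-cell replicate 1 or 3 (0.11 and 0.0603) or blastocyst replicate 1, 2 or 3 (0.164, 0.0751 and 0.139), and that of PDHB without prepubertal blastocyst replicate 1 (0.0878). With all signals raised to the highest background, the calls of MPC1 (adjusted p = 0.294), MPC2 (0.441) and PDHA1 (0.724) also ended. The other 7 of 9 measured genes of the pyruvate dehydrogenase list, among them PDHX, DLAT and DLD of the same complex, were not called in any comparison.

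The chaperone of lactate transporters BSG rose over the mean of both donor groups (3.45, adjusted p = 0.0255), and 5 single arrays ended that call (highest adjusted p = 0.124). The lactate transporter gene SLC16A1 was above background on all adult 8-16-cell arrays (2195, 8546 and 14382) and read 165, 4531 and 229 in prepubertal 8-16-cell embryos. It was higher in prepubertal blastocysts by 3.76 (adjusted p = 0.0603 in limma), and it passed without prepubertal 8-16-cell replicate 2 (5.24, adjusted p = 0.0067).

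In the fructose and polyol list SORD, the sorbitol dehydrogenase that makes fructose from sorbitol, was the 1 of 8 measured genes that rose. Among all tested probe sets 1.43% were called higher in the prepubertal group and 3.9% over the mean of both. It read 1103, 1648 and 1023 in adult and 26.8, 34.1 and 76.3 in prepubertal 8-16-cell embryos, and 3249, 6635 and 2746 in adult and 4712, 10422 and 3395 in prepubertal blastocysts. It rose at least 8.49-fold in the prepubertal group (adjusted p = 0.00102), or at least 13.6-fold without prepubertal 8-16-cell replicate 3. The call was kept without any 1 array (highest adjusted p = 0.0238) but ended with all signals raised to the highest background (1.72, adjusted p = 0.0895). SORD differed by 1.65 in the adult group (adjusted p = 0.786 in limma). HIF1A, the hypoxia factor known to activate glycolytic genes, fell over the mean of both donor groups as 1 of 6 regulators (-3.25, adjusted p = 0.0376). There 2.51% of all tested probe sets were called lower, and 7 single arrays ended the HIF1A call (highest adjusted p = 0.181 in limma). Of 6 pentose phosphate genes limma called 0, with 2 at an unadjusted p under 0.05 over the mean of both (4013 of the 24016 tested probe sets). RPE had the smallest p among them, lower by 2.63 over the mean of both (adjusted p = 0.0763 in limma), and it passed without prepubertal 8-16-cell replicate 1 (-3.09, adjusted p = 0.032).

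**Figure D5:**
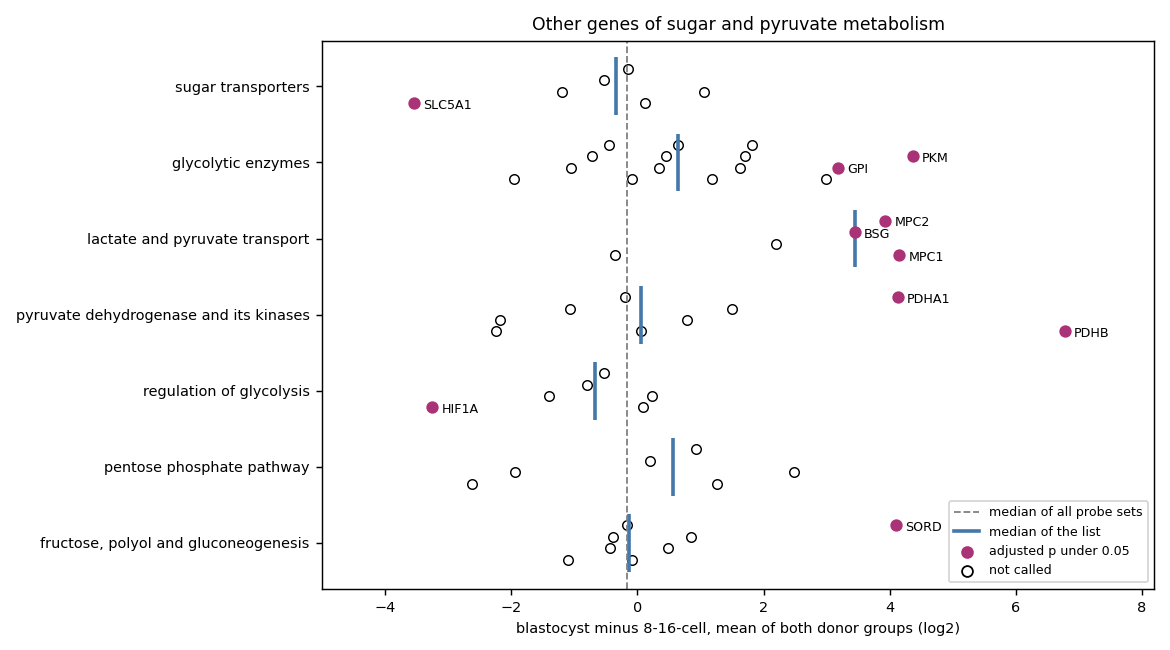
Blastocyst minus 8-16-cell difference of log2(signal + 16), mean of both donor groups, for each measured gene of the 7 further lists, with filled points for an adjusted p under 0.05, a blue bar at each list's median and a dashed line at the median of all tested probe sets. The filled points right of 0 include PDHB (6.78) and PKM (4.37), and those left of 0 are SLC5A1 (-3.55) and HIF1A (-3.25).

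The genes most like the called members over the 12 arrays were named by rank alone. Likeness was the mean absolute difference of log2 values after each gene was centred on its own mean, over 5993 genes at or above the median level. Nearest to SLC2A5 were PLAC8A (0.68), GCSH (0.77) and NDUFA13 (0.77). Nearest to GAPDH were MPC2 (0.61), PIP4K2C (0.67) and RPL38 (0.71). ALDOA was nearest to NUDC (0.74), MANF (0.89) and VMA21 (0.96), and ENO1 to RBSN (0.52), ZDHHC23 (0.68) and RPS29 (0.72). These values share the arrays, their scaling and the stage difference, and are a description.

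Markers of the 2 stages moved with the results above. Summed signal of the 8 measured trophectoderm markers was 595 to 793 in adult and 704 to 1310.2 in prepubertal 8-16-cell embryos, and 34448 to 89795 over the blastocyst arrays. That of 7 oocyte and maternal markers was 32775 to 56887 and 52267 to 266272 at the 8-16-cell stage, and 233 to 1715 in blastocysts. The 10 cumulus and granulosa markers summed to 1111 to 13987 at the 8-16-cell stage and 1407 to 3795 in blastocysts. In each group 1 of the 10 was above background on all arrays. On at least 1 array, 4 and 2 were above it in adult and prepubertal 8-16-cell embryos, and 3 and 2 in blastocysts. The list was thus mixed: FSHR, AMH, INHA and PTX3 were at background on every array, while other markers of it were above background in every group. Carry-over of cumulus RNA was not tested. None of 5 blood and 5 sperm markers was above background on all arrays of any group. On at least 1 array, between 1 and 2 blood markers and between 1 and 3 sperm markers were above it in each group. The part of the new trophectoderm and of the lost maternal RNA in the changes of the 9 genes was not tested.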

How the data were processed

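Each pool's RNA was amplified by WT-Ovation Pico, labelled with biotin and hybridized to a bovine Affymetrix array, per the labels' protocols. Each deposited value is the intensity of 1 probe set, computed by the authors with MAS5, per the submitters' processing notes. For the version and settings of MAS5, the sources used here give nothing. The mean intensity of each array, trimmed by 2% at each end, lay between 500.2 and 500.3, so the arrays share a scaling and hybridization differences of amplified RNA remain in the values. No genome build is named, so no coordinates are given. Gene symbols came from the platform's annotation, updated by gene identifier for 13263 of 13292 probe sets that name 1 gene.

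Log2(signal + 16) of 24016 probe sets was fitted with limma 3.58.1 in R 4.3.3 (4 group means over all 12 arrays, lmFit, eBayes with trend = TRUE, 8 residual and 195.66 prior degrees of freedom, two-sided). The 112 Affymetrix controls were left out. Exact two-sided permutation tests compared within-array differences of LDHA, LDHB, the transporters and the 3′ and 5′ control probe sets (3 arrays against 3 cannot go below p = 0.1, and 400 arrangements within donor groups not below 0.005). On data simulated for the adult stage comparison over 24016 probe sets, the fit recovered 12% of changes of 3 and 84% of changes of 6 on the log2 scale (100 of each), so a gene that missed the threshold may still have changed. Precision is limited by the number of arrays.

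The genes named were the 9 members, each by its brightest tested probe set; the genes of the 7 pathway lists that were called, or had the 2 smallest p among those not called in a stage comparison; and the 3 genes most like each called member. The members and lists were chosen with earlier results of these data known. The rule's brightest GAPDH probe set was a control, so GAPDH was tested by its other probe set. Alternatives were the pseudocount (1, 64), a low-value filter, quantile normalization, a floor at the highest background, array weights, fits of the compared groups alone, a replicate block, no trend, leaving out each array and, for genes with several probe sets, their mean. Control probe sets in the fit, the single other probe sets and, for within-array differences, signals raised to each array's background were added after seeing the data. The deposited table held 0 columns of other samples, and arrays shared at most 0.00414% of their values. Same-numbered arrays did not deviate together, so the replicate numbers were not used as pairs.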

Additional observations from a re-analysis of the deposited data

How the results depend on the processing

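Counts here are of all tested probe sets called by limma, 24016 in the main fit. The floor at the highest background left 6396 to test, those not at the floor on every array. The low-value filter left 20540. Counts from these fits are thus of other totals, with the adjustment over fewer probe sets, and do not compare as shares. In the adult stage comparison (512) the count was 241 with every signal raised to the highest background, 889 with array weights and 253 to 794 with 1 array left out. In the prepubertal one (563) it was 298 with the floor and 272 to 611 with 1 array left out, and over the mean of both (1538) it was 603 with the floor. The donor comparison of 8-16-cell embryos (5) gave 3 with a pseudocount of 1 or 64, the low-value filter or array weights, 8 after quantile normalization, 1 with the floor, 2 in a fit of the compared groups, 0 without the trend, 15 with control probe sets in the fit and 2 to 14 with 1 array left out. That of blastocysts (0) gave 2 in a fit of the compared groups, and the difference of the donor effect (0) gave 0 to 1 with 1 array left out.

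The floor, a signal of 1664 set by prepubertal 8-16-cell replicate 3, ended the calls of GAPDH, ALDOA and ENO1. Of the pathway genes, it ended the calls within a donor group of MPC1, MPC2, PDHA1 and SORD, and those over the mean of both of SLC5A1, GPI, PKM, BSG, MPC1, MPC2, PDHA1 and HIF1A (adjusted p = 0.116 for PKM to 0.432). Where all arrays lay at the floor no value is given. The SLC2A5 call in the mean of both donor groups was lost with probe set Bt.12774.1.S1_at alone (adjusted p = 0.0619), and that in the adult group with the mean of its probe sets (4.24, adjusted p = 0.114). Array weights ended the prepubertal calls of GAPDH and ALDOA (adjusted p = 0.0628 and 0.0543), and a pseudocount of 1 that of ALDOA (0.059). The PDHA1 call also ended with array weights (0.0574) or a pseudocount of 64 (0.056), and that of HIF1A after quantile normalization (0.0636). With a replicate block, the stage counts were 540, 608 and 1591, and SLC2A5 passed in the prepubertal group (adjusted p = 0.0494). The block changed no other call of the 9 genes. Same-numbered arrays correlated between -0.0253 and 0.0486 in their deviations from the group means, and 8 of 12 correlated best with their own number.

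Directions turned as follows, and the cause was not tested. LDHA turned with the mean of its probe sets, Bt.13881.1.S1_at and Bt.25555.1.S1_at: 0.28, 1.84 and 0.14 for the adult stage change, 1.39, 5.11 and 1.23 for the prepubertal one, 0.83, 3.47 and 0.69 for their mean, -0.32, -2.13 and -0.73 between donors at the 8-16-cell stage, and 1.11, 3.27 and 1.09 for the difference of the donor effect. LDHA minus LDHB was 1.22 by Bt.13881.1.S1_at, and -1.57 and no longer past the threshold by Bt.25555.1.S1_at. SLC2A3 minus SLC2A1 was -0.18 with the floor and -0.039 with each signal raised to its own array's background. SLC2A5 turned between donors to -0.97 at the 8-16-cell stage with Bt.12774.1.A1_at, to 0.95, 0.96 and 2.39 in blastocysts with the mean, Bt.12774.1.A1_at and Bt.12774.1.S1_at, and to 0.020 and 1.93 in the difference with the mean and Bt.12774.1.A1_at. GAPDH turned with controls in the fit (1.54 between donors at the 8-16-cell stage and -0.54 in the difference). With the floor SLC2A3 turned to -0.22 in the adult stage change and PGK1 to 0.076 between donors at the 8-16-cell stage.

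With 1 array left out, the adult stage changes of SLC2A3 (-0.35 to 1.75), ALDOA (-0.52 to 2.30) and SLC16A1 (-0.14 to 1.21) turned. So did the donor differences at the 8-16-cell stage of SLC2A5 (-0.089 to 1.85), GAPDH (-2.06 to 0.089) and PGK1 (-2.58 to 0.65), those in blastocysts of LDHB (-0.15 to 0.28) and ENO1 (-0.60 to 0.93), and the differences of the donor effect of PGK1 (-0.090 to 3.14) and ENO1 (-0.083 to 1.54). None of these was called with all arrays.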
